A study of Mus musculus with 4 samples.

Results

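The cytochrome P450 genes of the mouse were described as they stand in the genome annotation of a study of RNA polymerase I (Pol I). A gene was counted as a member when its symbol on an assembled chromosome read Cyp, a family number, a subfamily letter and a gene number, as in Cyp2e1. This gave 93 genes of the 26125 gene symbols on assembled chromosomes, with 126 transcript rows in all. The study mapped Pol I by CUT&Tag, in which an antibody brings a transposase to chromatin so that adapters are inserted near the bound protein, in C64 mouse embryonic stem cells. It had 2 libraries from cells given 500 nM auxin for 6 h and 2 libraries from untreated cells. The labels name neither the protein that auxin acts on nor separate cultures behind the replicates. The file analysed is an annotation with positions, strands and exons, and all of its scores are 0. Pol I occupancy over these genes was therefore not analysed here, the depth of the libraries is unknown, and positions and exon lengths have no replicate error. The label embryonic stem cell could not be checked, since no expression values were analysed. All counts below are descriptions and were not tested.

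P450 enzymes hold a heme group and use it to insert an oxygen atom into a substrate. Families 1 to 3 include the main drug and toxin metabolising enzymes of the liver, family 4 enzymes act mostly on fatty acids and their derivatives, and other families make or break down cholesterol, bile acids, steroid hormones, vitamin D and retinoic acid. Enzymes in the endoplasmic reticulum receive electrons from the reductase Por, and the mitochondrial P450 enzymes receive them through the ferredoxin Fdx1. Genes of the drug-metabolising families often lie side by side, whereas many genes of the sterol and hormone pathways have no close neighbour of the same family.

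The 93 genes fell into 16 families, and 8 of these families had a single member. Family 2 was the largest with 48 genes, followed by family 4 with 17 and family 3 with 7. Members lay on 14 chromosomes, 42 on the plus strand and 51 on the minus strand. A coding part was annotated for 92 of the 93 genes. The exception, Cyp2d13, had 9 exons without a coding part, and the reference gene table lists it as a transcribed pseudogene. Each gene was represented by the row with the longest coding length. The 92 coding genes had a median coding length of 1512 bases (quartiles 1478 and 1530, range 1017 to 1641), against 1221 bases (quartiles 807 and 1996) over all 20992 coding symbols. Their median of 9 coding exons (quartiles 9 and 12) compares with 6 (quartiles 3 and 12) over all coding symbols. Median span was 21317 bases for the coding P450 genes and 16724 bases for all coding symbols. The coding lengths lay in a narrow range while the spans did not. The shortest gene was Cyp8b1 with 1950 bases and the longest was Cyp2c39 with 222223 bases, while their coding lengths were 1503 and 1473 bases.

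A coding length alone does not show that genes are built alike, so the exons were compared next. A junction between coding exons was given a phase, which is 0 when it falls between codons and 1 or 2 when it falls after the first or the second base of a codon. Of 92 coding P450 genes, 49 (53.3%) had 9 coding exons, against 4.78% of all coding symbols. Of these 49 genes, 43 were in family 2, and the others were Cyp11a1, Cyp11b1, Cyp11b2, Cyp19a1, Cyp27a1 and Cyp27b1. The members share ancestry and are not independent observations.

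Family 2 holds drug-metabolising enzymes such as Cyp2e1, which oxidises ethanol, and the arachidonic acid epoxygenases of the Cyp2c and Cyp2j groups. Of its 47 coding genes, 43 had 9 coding exons, and all 43 had the phases 0, 1, 1, 0, 0, 1, 0 and 1 at their 8 junctions. That series was found in 0.205% of all 20992 coding symbols, which is 43 symbols, and each of them was a member of family 2. Exon lengths were nearly fixed inside the gene and varied at its ends. Exon 7 had 188 bases in 42 of 43 genes, exon 4 had 161 bases in 41, exon 5 had 177 in 40 and exon 6 had 142 in 38. Exons 3 and 8, with 150 and 142 bases, kept their most frequent length in 36 genes each, and exon 2 with 163 bases did so in 34. The last exon had 182 coding bases in 22 genes and ranged over 176 to 197. The first varied most, with 168 coding bases in 14 genes, 9 distinct lengths and a range of 168 to 216. Every departure from the most frequent length, in all 9 exons, was a multiple of 3 bases. The shared phases, with coding lengths of whole codons, fix this in advance. In all, 303 of 387 exons (78.3%) had the most frequent length for their place, and 89.9% came within 3 bases of it.

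First exon length went largely with subfamily, though some lengths were shared between subfamilies. The first exon held 168 coding bases in Cyp2c29, 171 in Cyp2b10, 180 in Cyp2a5, 177 in Cyp2e1, 189 in Cyp2d26 and 210 in Cyp2j5. The 7 Cyp2d genes with 9 coding exons also had 172 bases in exon 2 and 153 in exon 3. Cyp2c23, the Cyp2c gene outside the large Cyp2c cluster, had 180 bases in its first exon.

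Cyp2d40, Cyp2r1, Cyp2t4 and Cyp2u1 were the family 2 genes with another number of coding exons. Cyp2d40 had 6 coding exons and 1017 coding bases, the shortest coding length of the 92. It was 486 bases shorter than its neighbour Cyp2d26, and exons 2 to 4 of Cyp2d26 add up to the same 486 bases. The other 6 exons of Cyp2d40 had the lengths of exons 1 and 5 to 9 of Cyp2d26, which are 189, 177, 142, 188, 142 and 179 bases. Cyp2t4 had 10 coding exons, with 19 and 188 bases at its 5′ end followed by the usual 163, 150, 161, 177, 142, 188, 142 and 182. Cyp2r1, a hydroxylase of vitamin D in the liver, and Cyp2u1, a fatty acid hydroxylase, had 5 coding exons each. Exon 3 of Cyp2r1 held 633 bases and exon 2 of Cyp2u1 held 636, beside 630 bases for the usual exons 3 to 6 together. Exon 4 of Cyp2r1 held 330 bases, exactly the sum of the usual exons 7 and 8. Exons 3 and 4 of Cyp2u1, of 162 and 168 bases, also added up to 330. The junction between them was in phase 1, whereas the usual one between exons 7 and 8 was in phase 0. The whole stretch set against the usual exons 3 to 8 was therefore of the usual length to within 6 bases, while fewer junctions lay in it. The exons to compare were set by hand, so this match is partly built in. Not every such sum was close, as exons 1 and 2 of Cyp2t4 added up to 207 bases, beside 180 in exon 1 of Cyp2a5.

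Family 3 was the most uniform. It holds the Cyp3a enzymes, of which Cyp3a11 is a main drug-metabolising form of mouse liver. All 7 genes had 13 coding exons and the same 12 phases. Their lengths differed only in exon 9, with 70 bases in Cyp3a11, Cyp3a16 and Cyp3a44 and 67 bases in Cyp3a13, Cyp3a25, Cyp3a57 and Cyp3a59. Coding length was 1515 bases in the first set and 1512 in the second. Cyp3a41a and Cyp3a41b, whose symbols carry an extra letter and so are not members, had the same phases, and no other coding symbol had them.

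Family 4 fell into 2 plans of 12 coding exons that differed at the sixth and seventh junctions. The Cyp4a genes, which hydroxylate fatty acids, shared the phases 0, 1, 1, 0, 2, 1, 0, 2, 1, 0 and 2 with Cyp4b1 and Cyp4x1, 7 members in all. The Cyp4f genes, which act on leukotrienes and fatty acids, had 0 and 1 in place of 1 and 0 there. In 8 of 9 genes these were the sixth and seventh junctions. The exons around them held 155, 107 and 191 bases in Cyp4a10 and 271, 67 and 130 bases in Cyp4f14. Cyp4f18 on chromosome 8 had the same 12 exon lengths as Cyp4f14, Cyp4f16, Cyp4f17 and Cyp4f40 on chromosome 17. The genes with another number of exons were Cyp4f15 and Cyp4v3. Cyp4f15 had 13, its coding part beginning with exons of 14 and 199 bases. After the extra junction between them, its phases were those of the other Cyp4f genes. Cyp4v3 had 11 coding exons of 70 to 214 bases.

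**Figure D1:**
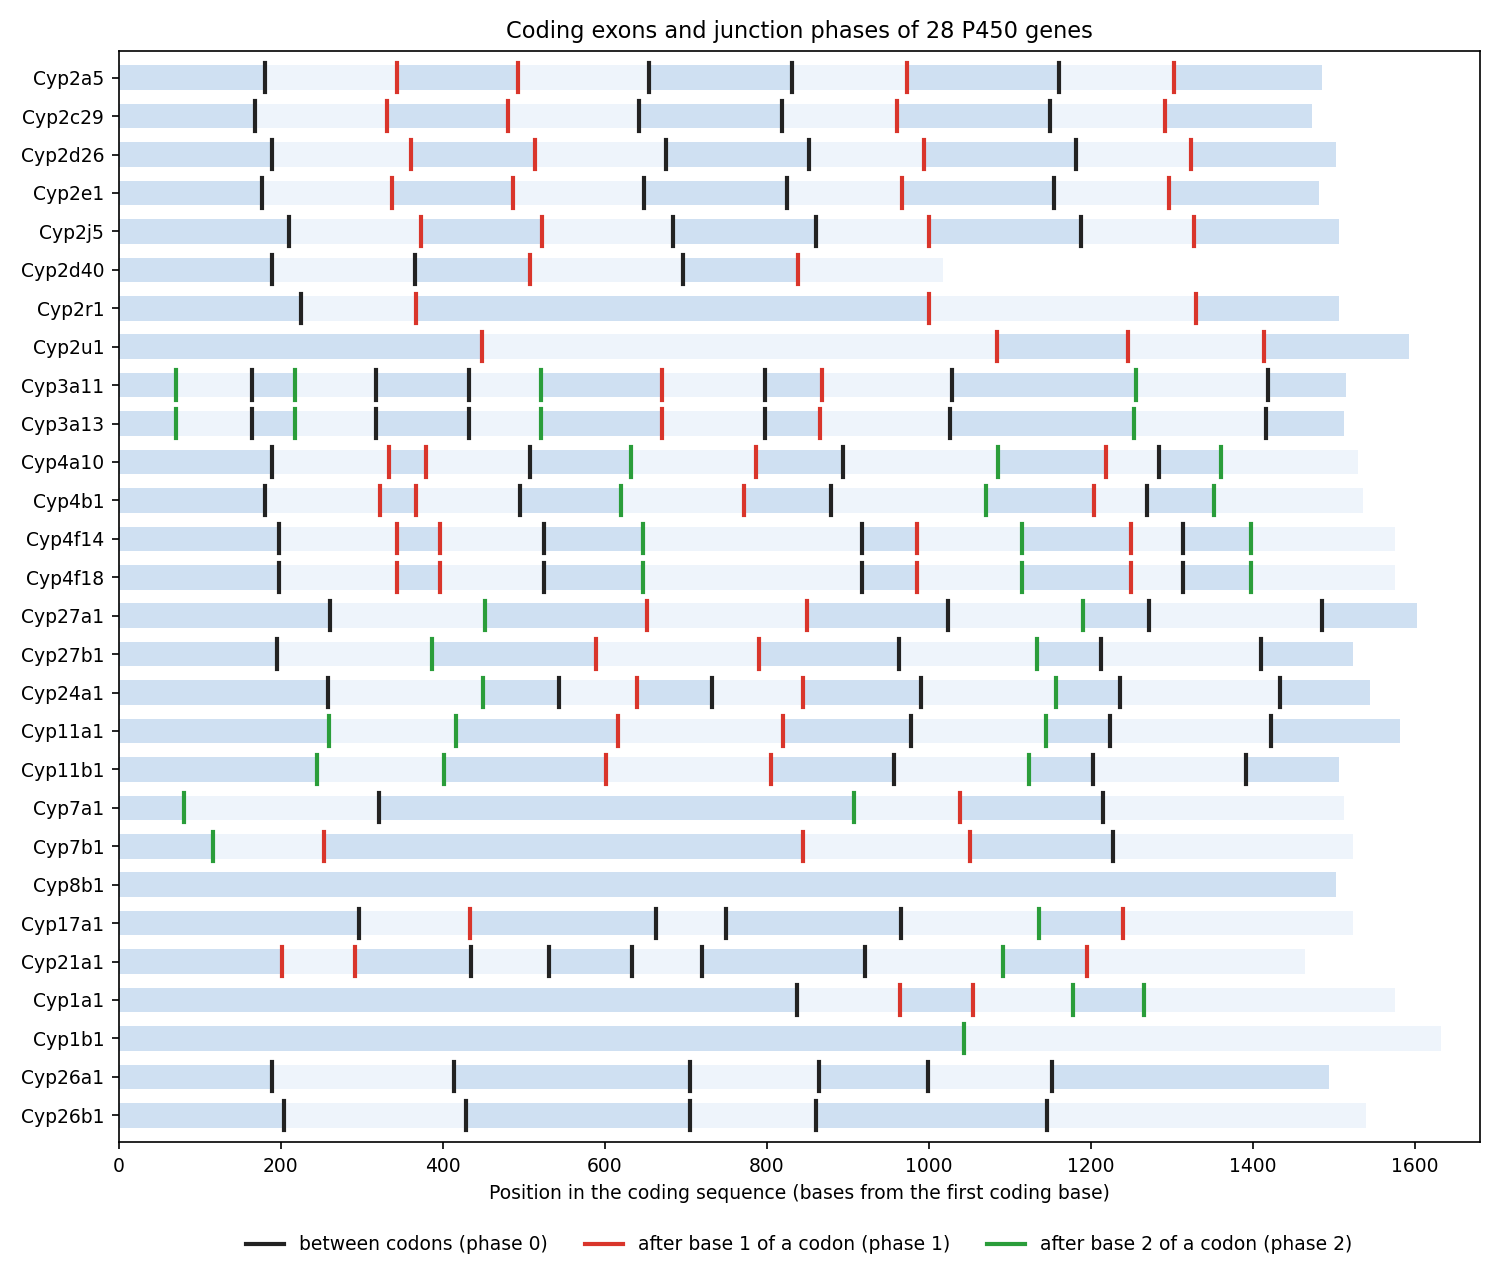
Coding exons of 28 P450 genes, drawn from the first coding base on the left in bases; blocks are exons and the coloured bars are junctions by phase. Cyp2a5, Cyp2c29, Cyp2d26, Cyp2e1 and Cyp2j5 show the same 8 phases, Cyp2r1 and Cyp2u1 have 4 junctions each, and Cyp8b1 has none.

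The P450 enzymes of mitochondria work on steroids, bile acid precursors and vitamin D. Cyp27a1 (chromosome 1, 74713535 to 74737897) oxidises the sterol side chain, and Cyp27b1 (chromosome 10, 127048246 to 127053006) makes the active form of vitamin D. Both had 9 coding exons with the phases 0, 2, 1, 1, 0, 2, 0 and 0. Cyp11a1 (chromosome 9, 57998024 to 58027031), which cleaves the cholesterol side chain at the start of steroid synthesis, had 2 at the first junction and otherwise the same phases. So had Cyp11b1 and Cyp11b2, which complete the synthesis of corticosterone and aldosterone. Exon 6 held 167 bases in Cyp27a1, Cyp11a1, Cyp11b1 and Cyp11b2 and 170 in Cyp27b1. Exon 7 held 79 bases in each of them except Cyp27a1, where it held 82. Cyp24a1 (chromosome 2, 170482957 to 170497145), which inactivates vitamin D, had 11 coding exons. When its exons 3 and 4 (191 bases together) and its exons 5 and 6 (204 bases) were joined, the remaining 8 junctions had the phases of Cyp27a1. The exons to join were set by hand, so this match is partly built in. The joined stretches stand beside exons of 200 and 198 bases in Cyp27a1.

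Of the genes of bile acid synthesis, Cyp7a1 (chromosome 4, 6265612 to 6275632) encodes the rate-limiting enzyme and Cyp7b1 (chromosome 3, 18071950 to 18243338) an oxysterol hydroxylase. Both had 6 coding exons, of which the fifth held 176 and the sixth 297 bases in each gene. Exon 3 held 587 bases in Cyp7a1 and 591 in Cyp7b1. Their introns summed to 5848 bases in Cyp7a1 and 169223 in Cyp7b1. Cyp8b1 (chromosome 9, 121914356 to 121916305), needed for cholic acid, was the only P450 gene with a single exon. Cyp39a1, which acts on a hydroxylated cholesterol, had 12 coding exons over 84060 bases. Cyp46a1, the cholesterol hydroxylase of neurons, had 15 coding exons, the most of the 92 genes, over 27919 bases.

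Cyp17a1 and Cyp21a1 encode hydroxylases of the endoplasmic reticulum in steroid synthesis. Cyp17a1 (chromosome 19, 46667165 to 46673000) had 8 coding exons and Cyp21a1 (chromosome 17, 34801348 to 34804426) had 10. Near the 3′ end both had exons of 170 and 104 bases and the phases 0, 2 and 1 at the last 3 junctions. Cyp21a1 was the second shortest gene, with 3079 bases, of which exons made up 62.5%. Cyp19a1, the aromatase that makes oestrogens, had 4 rows with the same 9 coding exons and 1512 coding bases. The rows spanned 27807, 36280, 62978 and 102228 bases and ended at the same 3′ position, so they differ in where they start.

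Family 1 responds to aromatic hydrocarbons through the receptor Ahr. Cyp1a1 and Cyp1a2 had 6 coding exons with the same phases, and exons 3 to 5 held 90, 124 and 87 bases in both. Their series of 5 junctions was also found in 5 coding symbols that are not P450 genes. The first coding exon held 837 bases in Cyp1a1 and 828 in Cyp1a2. Cyp1b1 had 2 coding exons of 1043 and 589 bases. Exons 2 to 6 of Cyp1a1 added up to 738 bases, which is not the length of exon 2 of Cyp1b1. The Cyp26 genes encode enzymes that degrade retinoic acid. All their junctions were in phase 0, with 6 coding exons in Cyp26b1 and Cyp26c1 and 7 in Cyp26a1. Exons 5 and 6 of Cyp26a1, joined by hand, added up to 288 bases, beside 285 in exon 5 of Cyp26b1 and 318 in exon 5 of Cyp26c1. Cyp20a1, a P450 gene without a well-known substrate, had 13 coding exons and 1389 coding bases.

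The genes were then placed along the chromosomes. Neighbouring members at most 200 kb apart were joined, which gave 14 clusters with 70 of the 93 genes (75.3%). The largest was the Cyp2c cluster on chromosome 19 (39007019 to 40187286), with 14 genes from Cyp2c55 to Cyp2c70 in 1180 kb. The Cyp2d cluster on chromosome 15 (82370527 to 82794245) held 9 genes from Cyp2d22 to Cyp2d26 in 424 kb. The Cyp2j cluster on chromosome 4 (96042660 to 96664119) held 7 genes from Cyp2j13 to Cyp2j5 in 621 kb. Chromosome 7 carried a cluster of 5 genes from Cyp2s1 to Cyp2a4 (513 kb) and a cluster of 8 from Cyp2b23 to Cyp2t4 (493 kb). They were the clusters with more than 2 subfamilies, with Cyp2a, Cyp2b, Cyp2f, Cyp2g and Cyp2t in the larger and Cyp2a, Cyp2b and Cyp2s in the smaller.

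The Cyp4f genes on chromosome 17 made a cluster of 6 from Cyp4f39 to Cyp4f15 and a pair of Cyp4f14 and Cyp4f13. On chromosome 4, Cyp4x1 and Cyp4a29 made a pair, and 5 genes from Cyp4a14 to Cyp4b1 made a cluster of 162 kb. The Cyp3a genes on chromosome 5 made a pair of Cyp3a57 and Cyp3a16 and a cluster of 4 from Cyp3a44 to Cyp3a59. The other pairs were Cyp11b1 with Cyp11b2, Cyp26c1 with Cyp26a1 and Cyp1a2 with Cyp1a1. Several of these divisions rest on the naming rule or on the distance. The gap of 231 kb between Cyp4a29 and Cyp4a14 held Cyp4a12a, Cyp4a12b and Cyp4a30b, and the gap of 304 kb between Cyp3a16 and Cyp3a44 held Cyp3a41a and Cyp3a41b. The gap of 202 kb between Cyp4f15 and Cyp4f14 held 5 genes of other kinds, 4 of them Zfp genes. The gap of 350 kb between Cyp2a4 and Cyp2b23 held Nlrp4a, Nlrp9a, Nlrp9c and Vmn1r185. With a limit of 500 kb the count was 10 clusters.

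**Figure D2:**
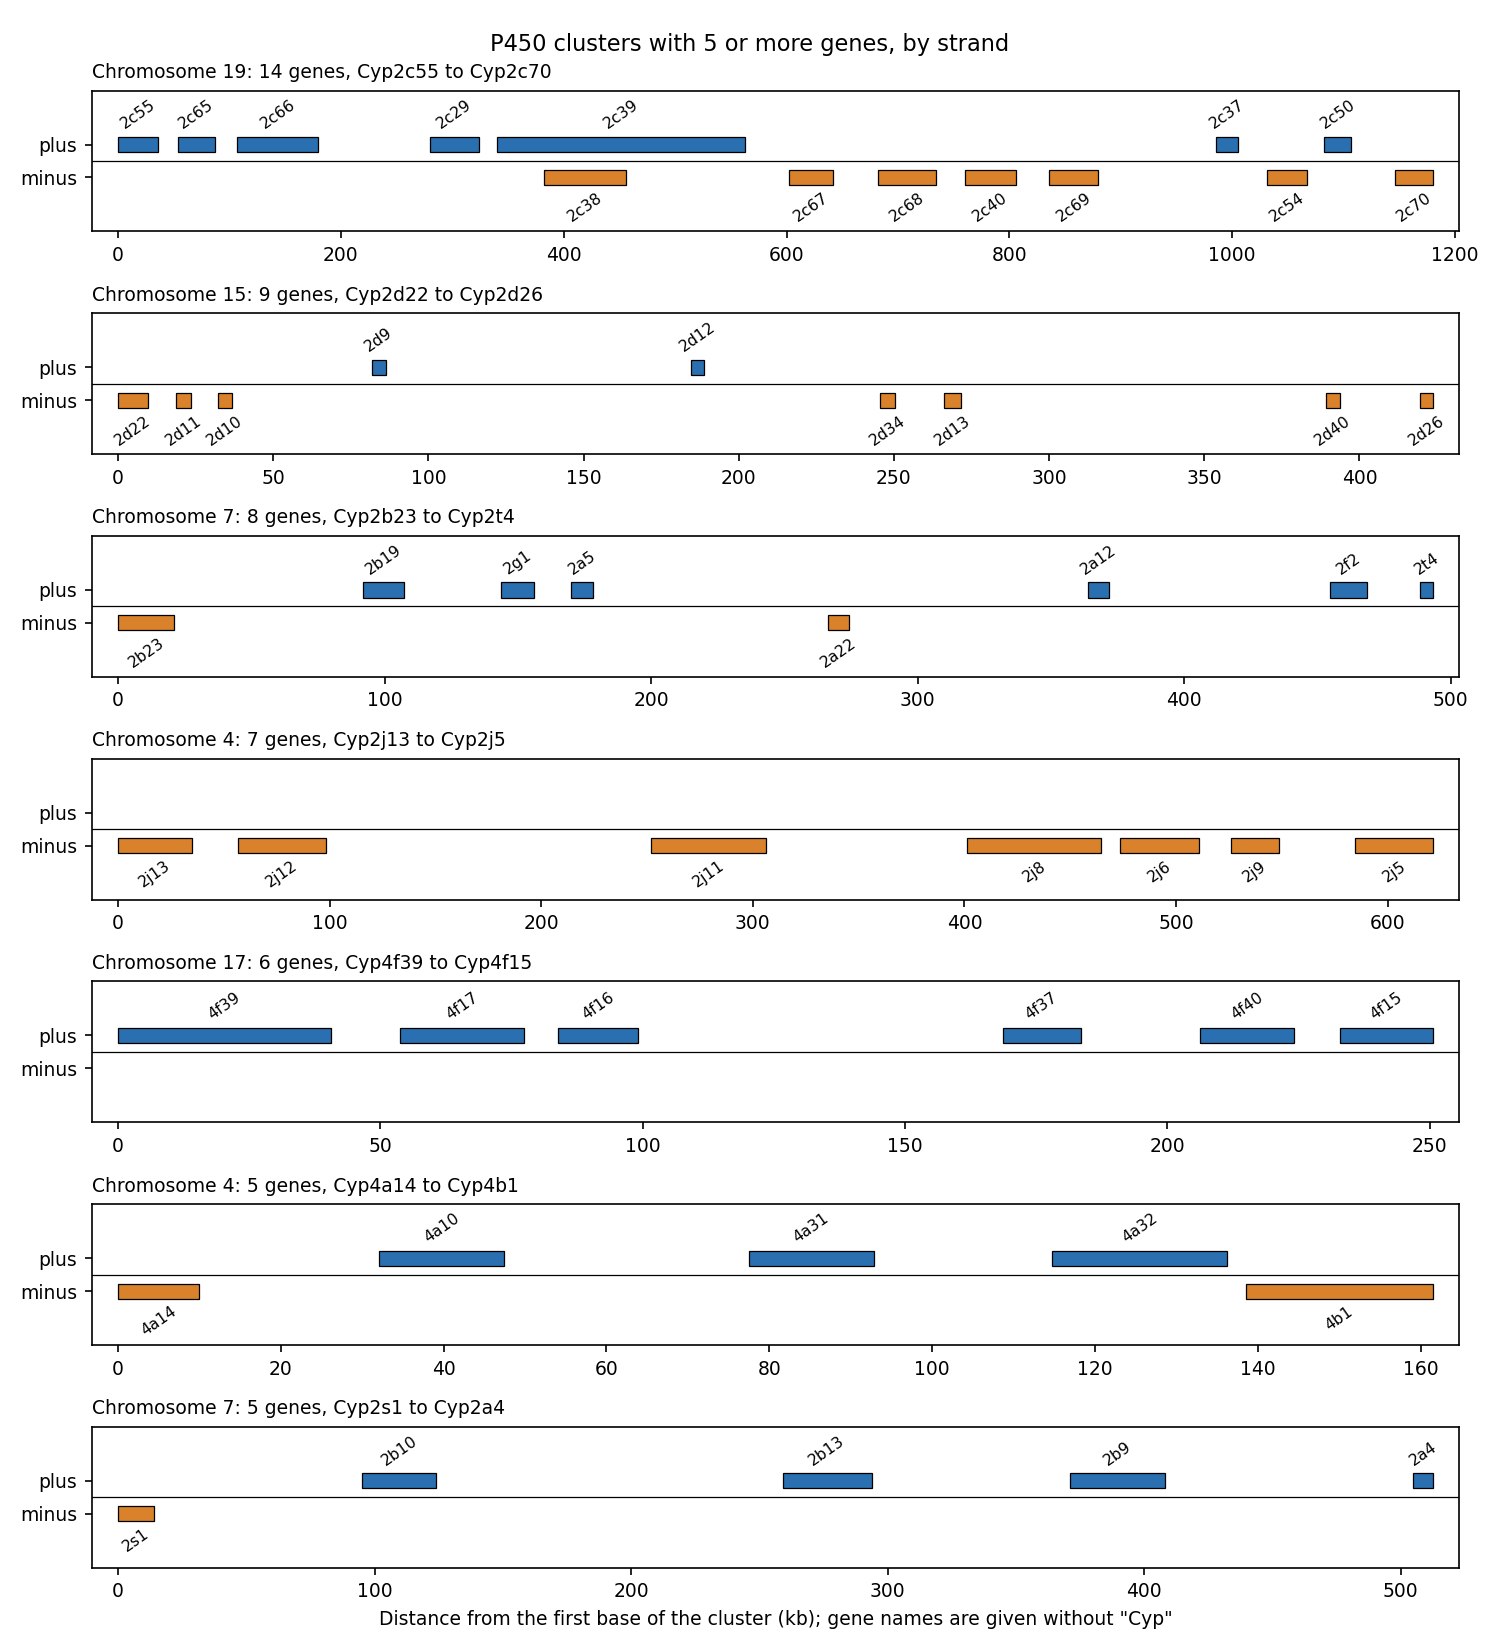
Maps of the 7 clusters with 5 or more P450 genes, each drawn in kb from its own first base; boxes are gene spans on the plus strand (blue, above the line) and the minus strand (orange, below it). All 7 Cyp2j genes are on the minus strand, all 6 Cyp4f genes shown are on the plus strand, and the Cyp2c cluster has 7 genes on each.

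Strand was shared by 39 of 56 neighbouring pairs in clusters (69.6%), against 51.9% of neighbouring coding loci at most 200 kb apart in the whole annotation. Clusters differed in this. All 7 Cyp2j genes ran on the minus strand and all 6 genes from Cyp4f39 to Cyp4f15 on the plus strand. In the Cyp2d cluster 7 genes were on the minus strand, and Cyp2d9 and Cyp2d12 lay between them on the plus strand. The Cyp2c cluster had 7 genes on each strand, with 8 of 13 neighbouring pairs alike. Its plus strand run Cyp2c55, Cyp2c65, Cyp2c66, Cyp2c29 and Cyp2c39 came before the minus strand run Cyp2c38, Cyp2c67, Cyp2c68, Cyp2c40 and Cyp2c69, and the last 4 genes alternated. Cyp1a2 and Cyp1a1 stood head to head, with 4272 bases between Cyp1a2 and the first row of Cyp1a1 and 13957 bases to the start of its other row. Between 51 of the 56 pairs no gene of another symbol was annotated, counting Cyp2c39 and Cyp2c38, which overlap, as such a pair. The symbols between the other pairs were Cyp2d37-ps, Cyp2c53-ps, Cyp4x1os, Cyp4b1-ps2 and Vmn1r184. A matching share over all neighbouring loci was not computed.

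The 23 genes outside clusters included most of the sterol and hormone list. They were Cyp7a1, Cyp7b1, Cyp8b1, Cyp11a1, Cyp17a1, Cyp19a1, Cyp21a1, Cyp24a1, Cyp26b1, Cyp27a1, Cyp27b1, Cyp2r1, Cyp39a1 and Cyp46a1, besides Cyp1b1, Cyp20a1, Cyp2c23, Cyp2e1, Cyp2u1, Cyp2w1, Cyp3a13, Cyp4f18 and Cyp4v3. Of the 18 genes of that list, Cyp11b1, Cyp11b2, Cyp26a1 and Cyp26c1 lay in clusters, as pairs. Cyp24a1, Cyp26b1, Cyp27b1 and Cyp46a1 were each the only member on their chromosome. Cyp11a1 was the closest to another member, 294 kb from Cyp1a1, and Cyp7b1 and Cyp2u1 on chromosome 3 were 113047 kb apart. Cyp3a13 lay on chromosome 5 with the other Cyp3a genes, but 1431 kb from Cyp2w1, its nearest member.

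Span differed between subfamilies that had the same exon plan, since intron length did. The 9 Cyp2d genes spanned 4139 to 9734 bases (median 4451) and the 4 Cyp2a genes 7729 to 7926 (median 7827). The 5 Cyp2b genes spanned 15489 to 37252 bases (median 28967), the 7 Cyp2j genes 23057 to 63448 (median 37514) and the 15 Cyp2c genes 19820 to 222223 (median 40185). The spans of Cyp2d and Cyp2c genes did not overlap, although all of their coding genes except Cyp2d40 had 9 coding exons. Summed introns had a median of 2994 bases in the coding Cyp2d genes and 38478 bases in Cyp2c genes. Exons made up a median of 35% of a Cyp2d gene and 4.25% of a Cyp2c gene. Cyp3a genes spanned 25248 to 45658 bases (median 32425), Cyp4a genes 9942 to 21429 (median 15363) and Cyp4f genes 12287 to 40598 (median 18029). The 5 longest genes were Cyp2c39, Cyp7b1 (171389 bases), Cyp19a1 (102228), Cyp39a1 (84060) and Cyp2c38 (73520). The 5 shortest were Cyp8b1, Cyp21a1, Cyp26a1 (3729 bases), Cyp2d26 (4139) and Cyp2d40 (4290). Spans depend on the annotation used. In RefSeq, 50 of the 93 members had the same span, and all 93 lay inside the span given there. Cyp7b1, Cyp2c38, Cyp26a1 and Cyp2d26 were among those with another span.

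**Figure D3:**
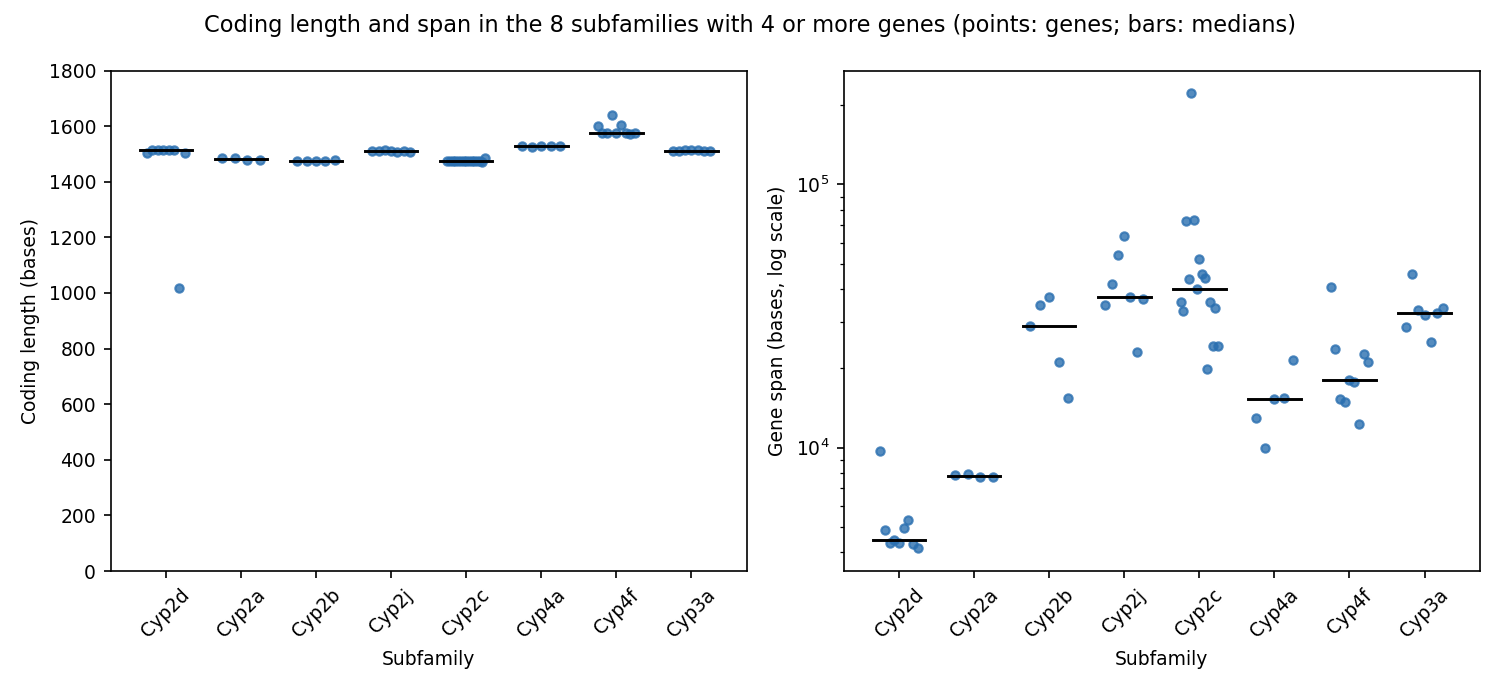
Coding length in bases (left, linear axis from 0) and gene span in bases (right, log axis) in the 8 subfamilies with 4 or more genes; each point is a gene and each bar a median. Coding lengths lie close together apart from Cyp2d40 at 1017 bases, whereas median spans run from 4451 bases for Cyp2d to 40185 for Cyp2c; Cyp2d13 has a span and no coding length.

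The length of Cyp2c39 depends on 1 of its 2 rows. Both had 9 exons and 1473 coding bases, and their exons 2 to 8 were the same. The first exon of the long row lay at 39347346 to 39347534, with an intron of 165638 bases after it, and that of the other row at 39510822 to 39511038, with an intron of 2134 bases. The other row spanned 57708 bases. Within the long intron lay the whole of Cyp2c38, 73520 bases on the opposite strand. Cyp2c38 and Cyp2c39 were among 6 members that shared a base with another symbol, 6.45% of the 93, against 19.2% of all coding loci. Cyp17a1 shared 4405 bases with Gm41857, Cyp24a1 718 bases with Pfdn4, and Cyp4x1 248 bases with Cyp4x1os, all on the opposite strand. Cyp2d11 held the 60 bases of Mir7684 on its own strand.

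The lengths of the coding exons differed between the coding rows of 13 members. Cyp2c39 is not among them, since its rows differ in the position of the first exon and not in coding lengths. The second row of Cyp11a1 had 9 coding exons and 1581 coding bases. Its first row began 16928 bases farther upstream and had 7 coding exons and 1116 bases. Cyp2c50 had rows of 9, 8 and 4 coding exons, and the row of 8 lacked the exon of 177 bases. Cyp4f14 had the most rows, 6, with the same 12 coding exons in each. A single row was annotated for 71 of the 93 genes, and the share of such genes over all symbols was not computed.

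Where a gene starts is also a property that the naming rule did not use. Windows of 300 bases, from 250 before to 50 from the start on, were taken from a RefSeq table of build GRCm38.p6, which held 72 of the 93 members and 16846 of the 20992 coding symbols. The window of the represented row was used, and 71 of 72 windows began at the start annotated for it. That of Cyp1a1 belonged to its other row, 9685 bases downstream. Cyp7a1, Cyp7b1, Cyp11b1, Cyp11b2, Cyp17a1, Cyp21a1, Cyp24a1, Cyp39a1, Cyp2c23, Cyp2c54, Cyp2d12, Cyp2d13, Cyp2d22, Cyp2d34, Cyp2g1, Cyp2u1, Cyp4a10, Cyp4a14, Cyp4a31, Cyp4f17 and Cyp4x1 had no window.

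The TATA box is a core promoter element that sets a sharp start, and it was searched as TATAAA on the gene's strand with its first base 40 to 20 bases before the start. It was found in 11 of 72 P450 windows (15.3%), against 2.87% of all coding symbols. The 11 genes were Cyp1a1, Cyp1a2, Cyp2a4, Cyp2a5, Cyp2a12, Cyp2a22, Cyp2c38, Cyp2c55, Cyp2c67, Cyp2e1 and Cyp8b1. All 4 Cyp2a genes were thus among them. The windows of 7 of these genes are shown from 60 bases before the start through the first 20 bases of the transcript, as examples from families 1, 2 and 8. Capitals mark TATAAA and, in Cyp1a1, GCGTG.
Cyp1a1, chr9:57697553-57697632, plus strand: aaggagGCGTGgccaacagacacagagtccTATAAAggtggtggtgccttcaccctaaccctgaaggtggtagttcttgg
Cyp1a2, chr9:57683636-57683715, minus strand: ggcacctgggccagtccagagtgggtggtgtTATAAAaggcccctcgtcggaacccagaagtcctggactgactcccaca
Cyp2a4, chr7:26307132-26307211, plus strand: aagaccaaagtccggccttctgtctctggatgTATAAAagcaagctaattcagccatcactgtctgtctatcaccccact
Cyp2a5, chr7:26835279-26835358, plus strand: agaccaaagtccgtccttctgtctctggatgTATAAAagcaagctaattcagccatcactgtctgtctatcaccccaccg
Cyp2a22, chr7:26939367-26939446, minus strand: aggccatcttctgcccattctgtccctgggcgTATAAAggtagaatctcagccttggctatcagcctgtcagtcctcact
Cyp2e1, chr7:140763759-140763838, plus strand: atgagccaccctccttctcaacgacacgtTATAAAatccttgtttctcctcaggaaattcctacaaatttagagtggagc
Cyp8b1, chr9:121916286-121916365, minus strand: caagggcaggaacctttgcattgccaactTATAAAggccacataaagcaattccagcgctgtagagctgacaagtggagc

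The first T of TATAAA lay 30 bases before the start in Cyp1a1, 29 in Cyp1a2 and Cyp2a5, 28 in Cyp2a4 and Cyp2a22, and 31 in Cyp2e1 and Cyp8b1. In the 4 genes not shown it lay 29 bases before the start in Cyp2c55, 31 in Cyp2c38, 39 in Cyp2a12 and 40 in Cyp2c67, the last at the edge of the range searched. Cyp1a1 also had GCGTG, the core to which Ahr with its partner Arnt is known to bind, with its first base 54 bases before the start. GCGTG was searched on both strands over the whole window and occurred in 14 of 72 P450 windows (19.4%), against 39.5% of all coding symbols. The shown window of Cyp1a2 had no GCGTG, which says nothing of sites elsewhere.

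P450 starts were poor in CG dinucleotides, which are abundant at the starts of many widely expressed genes. The ratio of observed to expected CG had a median of 0.152 in 72 P450 windows (quartiles 0.067 and 0.245), against 0.6 (quartiles 0.236 and 0.837) over all coding symbols. The counts behind it had medians of 2 CG per window for P450 genes and 14 for all coding symbols. A ratio of at least 0.6, a usual mark of CpG islands, was reached by 6 of 72 P450 windows (8.33%), against 50% of all coding symbols. These were Cyp46a1 with a ratio of 0.972, Cyp26a1 with 0.894, Cyp4v3 with 0.759, Cyp2r1 with 0.71, Cyp20a1 with 0.672 and Cyp1b1 with 0.642. Cyp2s1 came next with 0.571. Of these 6, Cyp26a1 was in a cluster, and the other 5 were among the 15 genes outside clusters that had a window. The median ratio was 0.125 in the 57 genes in clusters and 0.305 in the 15 outside. No window with TATAAA had a ratio of 0.6 or more. The matching share over all coding symbols was not computed. With 11 windows of the first kind and 6 of the second among 72, a lack of overlap says little. The full window of Cyp46a1 is shown, with its 31 CG in capitals.
Cyp46a1, chr12:108334066-108334365, plus strand: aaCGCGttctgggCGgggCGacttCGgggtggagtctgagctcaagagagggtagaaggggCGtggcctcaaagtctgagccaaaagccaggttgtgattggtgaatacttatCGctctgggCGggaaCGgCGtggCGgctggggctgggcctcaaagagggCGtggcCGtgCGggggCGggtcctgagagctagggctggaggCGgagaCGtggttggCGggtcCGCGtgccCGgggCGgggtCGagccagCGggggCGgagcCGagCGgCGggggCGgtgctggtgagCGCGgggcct

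**Figure D4:**
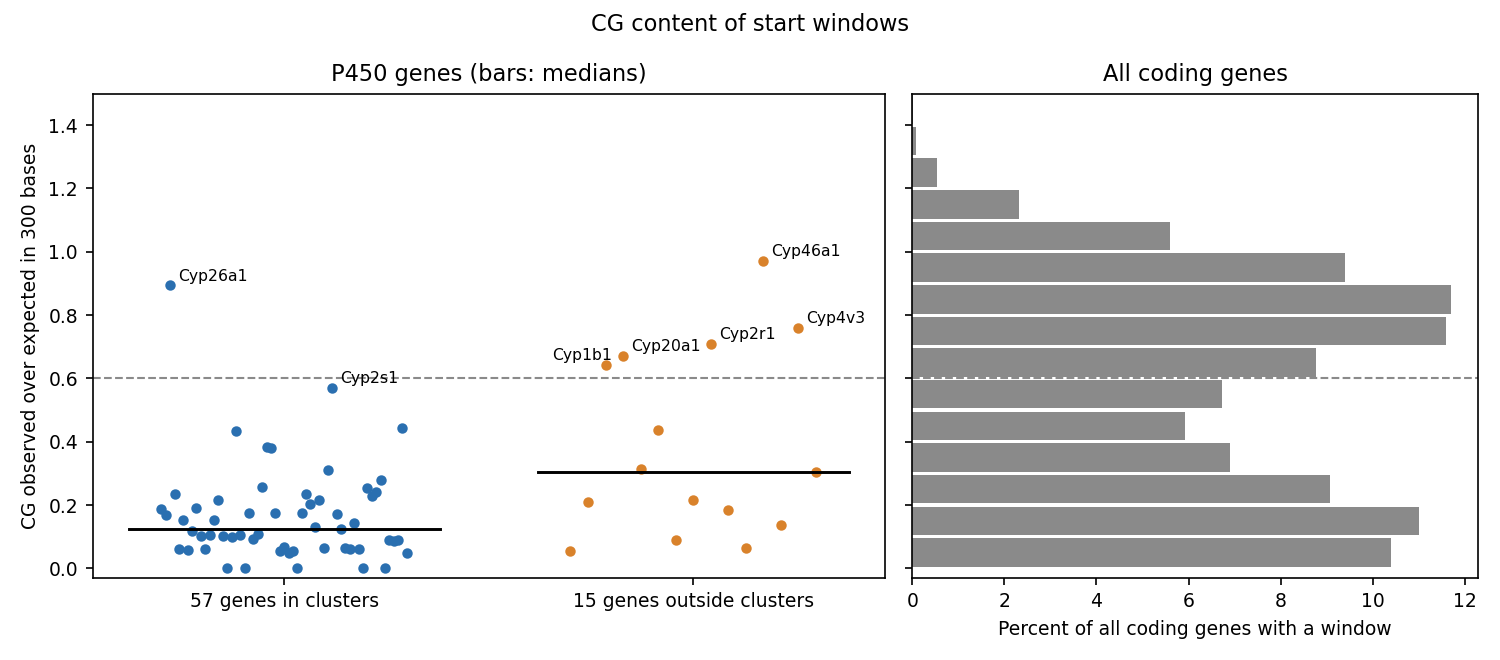
Ratio of observed to expected CG in the 300-base start windows of 72 P450 genes (left; blue points in clusters, orange points outside, bars for medians) and its distribution over all coding genes with a window (right, in percent of genes per step of the ratio). The dashed line is 0.6; 1 of 57 genes in clusters and 5 of 15 outside reach it.

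A read that lies wholly in bases shared by 2 copies cannot be assigned to 1 gene. The windows of members in the same cluster were therefore aligned with each other, though no reads were mapped. Identity had a median of 50.4% over 135 pairs of the same subfamily (range 43.9 to 99.3%) and 45.6% over 26 pairs of different subfamilies. Pairs that were not in the same cluster had a median of 45.4% over 2395 pairs. Identity of at least 80% was found in 8 pairs of the same cluster. The closest was Cyp2b13 with Cyp2b9, neighbours of the same strand on chromosome 7, with 298 of 300 bases alike and a shared run of 196 bases. Some Cyp2b enzymes are known for their induction by phenobarbital, and nothing here shows whether these 2 genes are among them. The 2 windows are shown with the bases that differ in capitals, which are C48T and T104C from Cyp2b13 to Cyp2b9, counted from the first base of the window.
Cyp2b13, chr7:26061245-26061544, plus strand: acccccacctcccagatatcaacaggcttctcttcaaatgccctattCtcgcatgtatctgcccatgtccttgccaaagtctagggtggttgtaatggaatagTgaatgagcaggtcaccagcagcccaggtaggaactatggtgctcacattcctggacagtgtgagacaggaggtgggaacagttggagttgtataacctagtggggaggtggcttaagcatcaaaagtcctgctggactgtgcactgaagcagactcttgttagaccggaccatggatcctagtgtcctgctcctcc
Cyp2b9, chr7:26173159-26173458, plus strand: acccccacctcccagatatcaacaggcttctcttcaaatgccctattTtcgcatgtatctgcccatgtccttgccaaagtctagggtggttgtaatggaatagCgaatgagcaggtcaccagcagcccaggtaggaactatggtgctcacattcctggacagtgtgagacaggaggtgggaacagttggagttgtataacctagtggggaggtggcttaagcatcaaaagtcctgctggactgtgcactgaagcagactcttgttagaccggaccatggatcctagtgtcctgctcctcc

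Next came Cyp3a25 with Cyp3a59 (96.3%), Cyp2c68 with Cyp2c69 (91.1%) and Cyp2c37 with Cyp2c50 (86.6%). Their longest shared runs were 57, 47 and 63 bases, whereas Cyp2c40 with Cyp2c69, at 80.9%, shared a run of 143. Identity thus does not give the share of reads that could be assigned, which was not tested. Cyp3a25 and Cyp3a59 lay on opposite strands, as neighbours. Members placed in separate clusters reached 97.7% in Cyp2a4 with Cyp2a5, 93.4% in Cyp3a16 with Cyp3a44, 90.8% in Cyp3a57 with Cyp3a59 and 89.1% in Cyp3a25 with Cyp3a57. In the windows shown above, Cyp2a4 and Cyp2a5 are offset by 1 base. High identity was not general in clusters, as 127 of the 135 pairs of 1 subfamily were below 80%.

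Genes that work with P450 enzymes were present. Each of the 20 listed symbols was annotated. The electron donors were Por (15 coding exons, 2037 coding bases), Cyb5a, Cyb5r3, Fdx1 (4 coding exons, 567 bases) and Fdxr (12 coding exons, 1485 bases). The receptors were Ahr, Arnt, Nr1i2, Nr1i3, Ppara, Nr1h4, Rxra and Nr5a1, and the steroid partners were Star, Hsd3b1, Hsd3b6 and Hsd17b1. P450 genes with other kinds of symbol were Cyp51 of cholesterol synthesis (10 coding exons, 1512 bases), Tbxas1, the thromboxane synthase (13 coding exons, 1602 bases), and Ptgis, the prostacyclin synthase (10 coding exons, 1506 bases). Their coding lengths lie within the range of the 92 members. Outside the assembled chromosomes, Cyp21a1 had a row on each of 3 alternate contigs of chromosome 17, with the same 10 coding exons and 1464 coding bases. A part of Cyp2u1, 549 bases with 1 exon, had a row on a fix contig of chromosome 3. Signal over Cyp21a1 can then be divided between contigs where all of them are used for mapping.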

How the data were processed

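Pol I CUT&Tag libraries were made from C64 mouse embryonic stem cells, 2 treated with auxin and 2 untreated. The file used is the annotation the authors deposited for the whole series, in 12-column BED layout without a header. Its score column, as deposited, is 0 in each row, and its other numeric columns are positions and block counts that the authors deposited in bases. The submitters' processing notes name bedtools, Bowtie2, deepTools and FastQC, with mm10 as build, without their order or roles. How the annotation was made is not given in the sources used here. No column holds a value per library, so the planned comparison of Pol I occupancy between groups was not run.

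Starts were converted to positions counted from 1. Rows of a symbol, chromosome and strand that shared a base were merged into a locus, whose length is the span. A gene was represented by its row with the longest coding length, then the longest summed exons, then the first start. Clusters are runs of at least 2 members with gaps of at most 200 kb. Exon and cluster routines were tested on simulated data with 276 genes, where 0 genes had wrong coding exons and 70 of 70 clusters were found. Gene types came from a RefSeq table of GRCm38.p6. Start windows were aligned globally with Biopython 1.88 (match 2, mismatch -1, gap opening -5, extension -1), and identity is the share of alignment columns. Python 3.11.15, pandas 2.3.3, numpy 2.4.6, scipy 1.17.1 and matplotlib 3.10.9 were used.

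The members and lists were chosen with earlier results of these data known. Genes were named by a rule (the sterol, bile acid, steroid, vitamin D and retinoid list, family 1, isolated members, cluster ends, the 5 longest and 5 shortest spans, and genes of families 2 to 4 with an unusual exon number), and other genes were named after their values were seen. The motif, CG and window comparisons were also added after the data were seen. Alternatives were other gap limits, other names, other rows for a gene, other exon counts and other overlap rules.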

Additional observations from a re-analysis of the deposited data

How the results depend on the processing

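No paired analysis was possible because no library has a value of its own here, and leaving out a replicate was not run for the same reason. Of 32 alternatives, 27 kept the value within the set limits. These were a factor of 1.5 for counts, 1% for medians and the 95% binomial interval for shares. The limit for counts is wide, as 126 transcript rows passed beside 93 genes. The interval treats pairs and exons as independent, which they are not, and served only as a set limit. The number of clusters was 14, and 10 to 18 under other gap limits, names or family rules, with 68 to 74 genes in them. The share of neighbouring pairs on the same strand was 67.2 to 71% in these settings. The median span over all 93 members, 21204 bases, became 19983.5 for the coding part only. The share of family 2 exons at the most frequent length, 78.3%, became 89.9% when 3 bases of difference were allowed. The 6 members that share a base with another symbol became 1 on the same strand. These changes follow from the definitions. Alternatives added after seeing the data gave 19 members with TATAAA anywhere before the start, against 11 in the narrow window. They also gave 3 members with a CG ratio of at least 0.75, against 6 at 0.6. The shares of all coding symbols at the added settings were not computed, so these counts have no level to stand beside. Depth limits nothing here, since no reads were counted.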

Other observations

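The annotation also holds 12 symbols that start with Cyp and a digit but do not follow the naming rule, and 7 of them had a coding part. Cyp4a12a, Cyp4a12b and Cyp4a30b had 12 coding exons and 1527 coding bases each, with the phases of the Cyp4a members. Cyp3a41a and Cyp3a41b had 13 coding exons and 1515 coding bases, as Cyp3a11 has. Cyp2ab1 on chromosome 16 had 5 coding exons and 843 coding bases. The symbols Cyp2c53-ps, Cyp2d37-ps, Cyp4b1-ps2 and Cyp4f41-ps, named as pseudogenes, had no coding part, nor had Cyp4x1os. Cyp2c53-ps lay inside the Cyp2c cluster, between Cyp2c66 and Cyp2c29, and Cyp2d37-ps lay inside the Cyp2d cluster, between Cyp2d13 and Cyp2d40.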
